A study of Mus musculus with 4 samples.

Results

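The genes described here encode the contractile actin cytoskeleton and the focal adhesions that anchor it: actins, tropomyosins, non-muscle myosin II, crosslinkers, adhesion plaque proteins, the ezrin, radixin and moesin linkers, actin monomer binding proteins and lamin A/C. They were taken as the rows of the expression tables whose symbol stood on a list of 42 genes and whose TPM, a transcript level per length scaled to the same sum in each library, reached 1 in 1 library or more. All 42 symbols were listed, 40 met the rule, and these 40 are the members, of 24411 genes in all. The libraries came from 4T1, an established mouse mammary carcinoma line grown in culture. There were 2 libraries labelled control and 2 labelled CD95ko, the latter from lines in which CRISPR guides were aimed at exon 9 of the CD95 gene (Fas), the receptor for Fas ligand. Per the labels' protocols, RNA was taken from control cells, from cells made to express Cas9 by a lentivirus under blasticidin selection, and from 2 single-cell clones made in that Cas9 line. The labels name 4 RNA sources for 4 libraries without tying source to library, so the libraries of a group appear to be different lines and not cultures of one line. Each clone is a single cell's progeny, and p-values measure only the spread among these 4 libraries.

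Actin filaments are built from monomers that profilin, thymosins and cofilin hold, deliver and recycle. Tropomyosins coat the filaments and set which myosins and severing proteins reach them, and non-muscle myosin II pulls on them once its regulatory light chain is phosphorylated. In cultured carcinoma cells these contractile bundles end at focal adhesions, where talin and vinculin couple the filaments to integrins. Several of these genes are classical targets of serum response factor (SRF), whose cofactors, the MRTF proteins, are held in the cytoplasm by free actin monomers and whose binding sequence is the CArG box.

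Fas itself was at 49.4 and 39.2 TPM in the control libraries, 15.8 TPM in CD95ko 1 and 49.5 TPM in CD95ko 2 (limma adjusted p = 0.615). One TPM per gene cannot show exon 9 alone, and the level in CD95ko 2 was not below the controls, so every direction below refers to the libraries as labelled. The tables carry no read counts, so depth is unknown. Control 2 had a median TPM over the 11167 tested genes of 16.3, against 21.3 to 22.9 in the other 3 libraries. Epithelial markers were present in every library, with 10 of 11 detected, and their summed level was 6778 and 6307 TPM in the controls against 10183 and 14367 TPM in the libraries labelled CD95ko. Krt7, Krt18 and Krt8 made up most of that difference. Of the 11 markers 7 were above both controls in both libraries labelled CD95ko, 2 overlapped (Cldn7 and Krt14), Krt5 was at 0, and Cldn3 was lower, at 671 and 615 TPM against 441 and 336 TPM. Over all tested genes 29.2% lay above both controls in this way and 18.3% below both. Smooth muscle and myofibroblast markers were at 0 in all 4 libraries for 5 of 8 genes, Myh11, Des and Actg2 among them, and their summed level of 101 to 169 TPM was nearly all Smtn. Striated muscle markers were at 0 throughout for 5 of 8 genes, with a summed level of 15.9 to 33.8 TPM. Of the fibroblast list 6 of 9 genes, of the leukocyte list 7 of 8, including Ptprc, and of the endothelial list 4 of 5 were at 0 throughout. Summed levels ranged from 0.97 to 4.52 TPM for the fibroblast list and from 0 to 0.28 TPM for the endothelial list, and the leukocyte sum of 17.8 to 146 TPM was Cd68 alone.

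The members were abundant transcripts. Their TPM summed to 1.59% and 1.76% of the total in the controls, 1.70% in CD95ko 1 and 2.07% in CD95ko 2. The genes best known from smooth muscle were an exception. Acta2, smooth muscle actin, was listed at 1.03 TPM in control 2 and at 0 in the other 3 libraries, and Tagln, or SM22, at 0.87 TPM in control 2 and 2.1 TPM in CD95ko 1 and at 0 elsewhere. Cnn1, the smooth muscle calponin, reached 0.82 TPM in CD95ko 1 only, and Myl9, the smooth muscle regulatory light chain, was listed at 0 in all 4 libraries. Cnn1 and Myl9 therefore fell outside the rule, and Acta2 and Tagln met the rule but not the filter of the test, which asked for a TPM of 1 in 2 or more libraries. The actin and myosin II genes that could be tested were thus the cytoplasmic, non-muscle ones, and 38 members were tested.

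**Figure D1:**
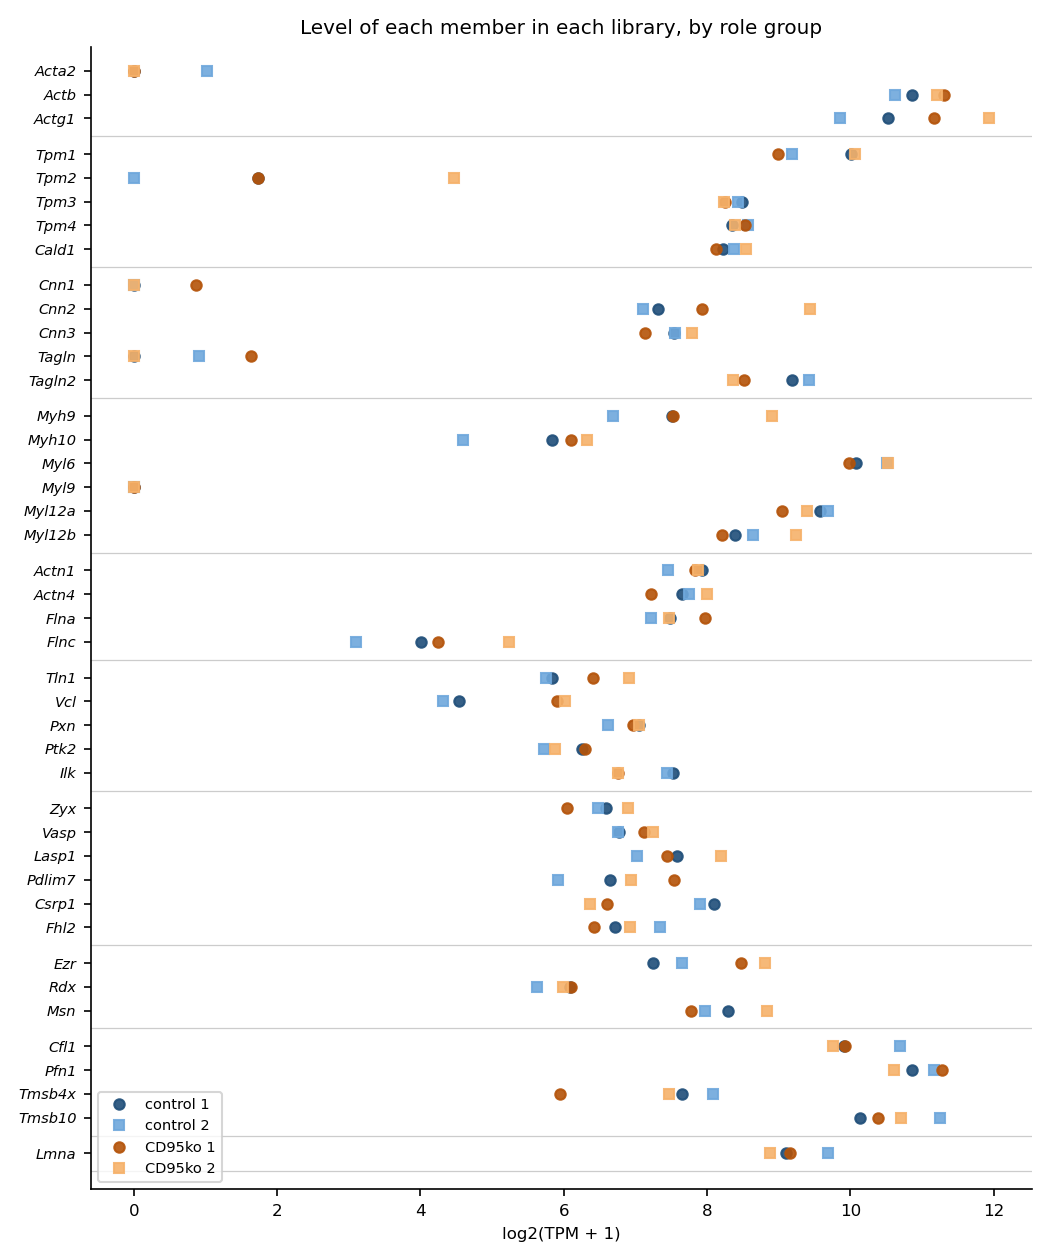
Level of all 42 listed genes (rows, grouped by role) in each library on a log2(TPM + 1) axis; circles and squares are the first and second library of each group, blue for control and orange for CD95ko, and coincident points hide one another. Acta2, Tagln, Cnn1 and Myl9 sit at or near 0 in every library, and the separate orange points of Vcl and Ezr lie to the right of both blue points, those of Csrp1, Tagln2 and Ilk to the left.

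Because several members are SRF targets in other cells, their promoters were searched for the CArG box, which opens with CC, holds 6 bases that are each A or T, and ends with GG, and which reads as a CArG box on either strand. RefSeq promoters (GRCm38.p6), 250 bases before to 50 bases after a transcript start, were matched by symbol for 38 of the 42 listed genes. Of these 38 genes, 6 held a CArG box (15.8%), against 1.81% of all genes in the promoter table. Among tested genes it was 5 of 35 members (14.3%) against 1.51% of all. The list holds known SRF targets, so these shares are no test of SRF in these libraries. The stretches are shown on the gene's strand with the box in capitals. Of the stretches, 3 belong to members that were higher in both libraries labelled CD95ko (Vcl, Cnn2 and Actg1). The others belong to members whose groups overlapped (Myl6 and Fhl2) and to Myl9, a listed gene at 0 in all 4 libraries. Over all tested genes 29.2% lay above both controls, and this split is no test of SRF either. The box ends 217 bases before the start in Vcl, 46 in Cnn2 and 80 in Actg1. They lie at chr14:20929148-20929215 (Vcl, forward strand), chr10:79988509-79988588 (Cnn2, forward), chr11:120348541-120348620 (Actg1, reverse), chr10:128493015-128493094 (Myl6, reverse), chr1:43163962-43164027 and chr1:43196813-43196892 (Fhl2, 2 starts, reverse) and chr2:156775268-156775347 (Myl9, forward).
Vcl: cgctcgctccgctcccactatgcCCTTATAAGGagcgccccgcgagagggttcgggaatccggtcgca
Cnn2: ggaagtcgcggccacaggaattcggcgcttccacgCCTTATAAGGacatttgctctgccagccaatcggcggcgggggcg
Actg1: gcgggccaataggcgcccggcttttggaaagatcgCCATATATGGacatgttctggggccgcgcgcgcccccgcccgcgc
Myl6: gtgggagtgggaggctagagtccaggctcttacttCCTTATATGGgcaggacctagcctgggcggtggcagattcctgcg
Fhl2, start nearer the gene's end: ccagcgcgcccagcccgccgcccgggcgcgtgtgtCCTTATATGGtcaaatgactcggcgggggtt
Fhl2, other start: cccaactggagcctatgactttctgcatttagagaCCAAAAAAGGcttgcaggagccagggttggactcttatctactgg
Myl9: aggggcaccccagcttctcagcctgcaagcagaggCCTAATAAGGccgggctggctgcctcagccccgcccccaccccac
A match in this window is a description of the sequence only. Srf itself was at 42.4 and 38.6 TPM in the controls and at 34.0 and 23.1 TPM in the libraries labelled CD95ko (unadjusted p = 0.232).

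Across the comparison of the 2 libraries labelled CD95ko with the 2 controls, the members did not move as a block. Vinculin, gamma-actin, ezrin and calponin 2 had higher transcript levels in both libraries labelled CD95ko, and Csrp1, transgelin 2 and integrin-linked kinase had lower levels in both. In limma on log2(TPM + 1), 0 of the 38 tested members passed an adjusted p of 0.05, where 0.0537% of all tested genes did, and robust eBayes also gave 0 members. An unadjusted p under 0.05 was reached by 12 of 38 members, or 31.6%, against 14.9% of all tested genes. Of these, 8 were higher (21.1%, against 9.25% of all genes) and 4 lower (10.5%, against 5.68%). Among genes with a mean TPM of at least 50 the corresponding shares were closer, 28.6% of 35 members against 21.4% of 3064 genes. The higher shares were 17.1% against 10.9%, and the lower shares were nearly equal, 11.4% against 10.6%. With eBayes without trend the count was 5 of 38 (13.2%), no higher than the 13.7% of all genes. Without control 1 it was 5 (13.2%, against 8.33%) and without control 2 it was 3 (7.89%, against 4.2%).

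The median log2 fold change of the members, 0.13, was the same as that of all tested genes, 0.13. Under quantile normalization these medians were 0.09 and 0.002, and under a median ratio scaling -0.03 and -0.03, so the scaling alone shifts a fold change by about as much as the members' own median. Both libraries labelled CD95ko lay above both controls for 11 of 38 members (28.9%, against 29.2% of all genes) and below both for 6 (15.8%, against 18.3%). In total 17 of 38 did not overlap (44.7%, against 47.6%), and these shares are near the background. Among all genes at an unadjusted p under 0.05, 62.0% were higher as scaled by the authors, 51.9% under quantile normalization and 48.1% under median ratio scaling, and the members split 8 higher to 4 lower, 6 to 3 and 5 to 3. Fold changes also went with transcript length, since across the 38 members the log2 fold change and the length of the longest GENCODE transcript had a Spearman rho of 0.476 (0.137 across 11103 genes). The same length had a rho of -0.478 with the difference of control 2 minus control 1 (-0.195 across all genes). Control 2 enters both this difference and the fold change, so these rhos are not independent. Against control 1 alone the members' fold change had a rho of 0.297 (0.07 across all genes), and against control 2 alone 0.53 (0.181). The members share the 4 libraries, and the part of length or of control 2 in the results was not tested.

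**Figure D2:**
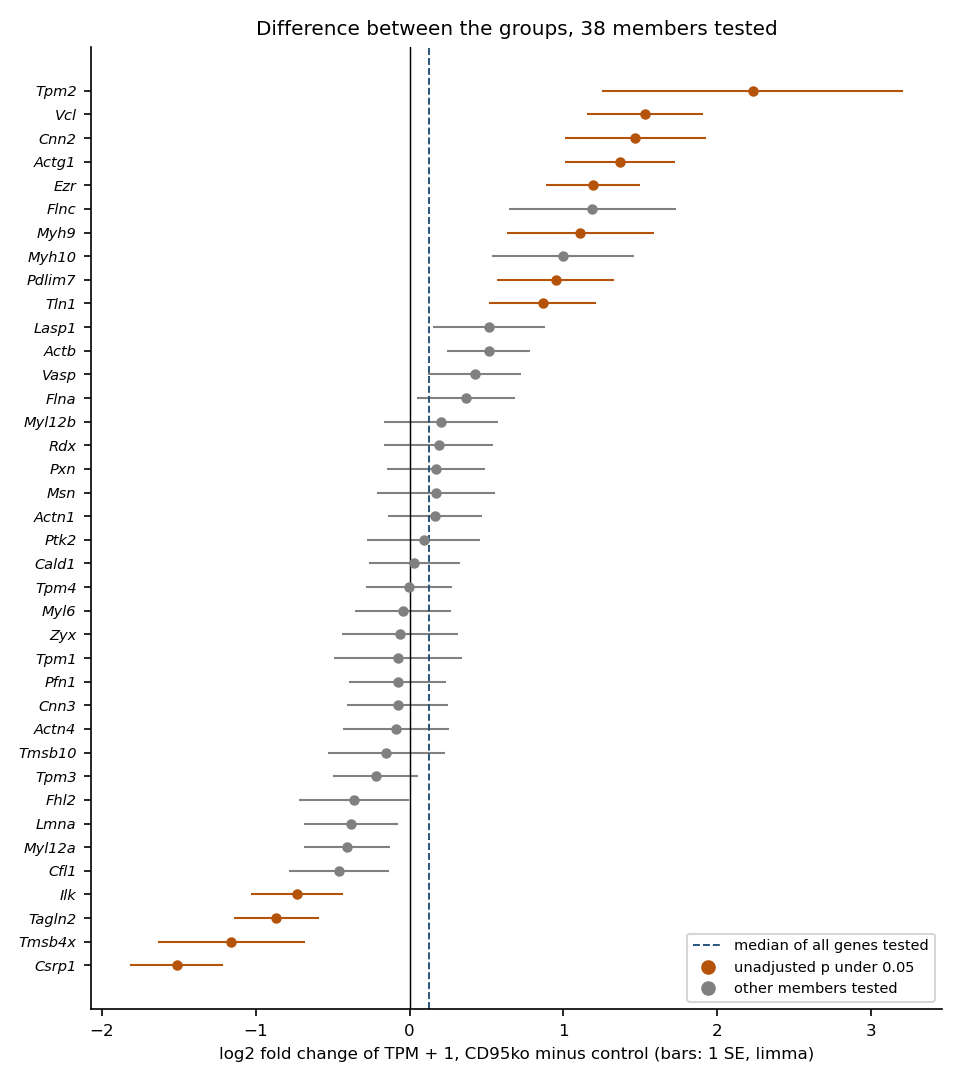
Log2 fold change of TPM + 1 (CD95ko minus control; bars, 1 SE from limma) for the 38 tested members in order of size; orange marks an unadjusted p under 0.05, and the dashed line is the median of all tested genes, 0.13. The values run from -1.52 for Csrp1 to 2.23 for Tpm2, whose SE of 0.98 is the widest.

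Of the actins, Actg1 encodes cytoplasmic gamma-actin and Actb cytoplasmic beta-actin, the main actins of non-muscle cells. Actg1 (chr11:120345690-120348542 in GENCODE M21, GRCm38, reverse strand) was at 1472 and 920.4 TPM in the controls, 2307 TPM in CD95ko 1 and 3920.1 TPM in CD95ko 2. The groups did not overlap, and CD95ko 2 stood apart from the other 3 libraries (log2 fold change 1.37 ± 0.36 SE, limma adjusted p = 0.159). Actb was at 1863 and 1570.5 TPM in the controls and at 2531 and 2366 TPM in the libraries labelled CD95ko. Its groups did not overlap either, but the difference was smaller (log2 fold change 0.52 ± 0.27 SE, limma adjusted p = 0.406). The ratio of Actg1 to Actb within a library was 0.79 in control 1, 0.586 in control 2, 0.912 in CD95ko 1 and 1.66 in CD95ko 2, so gamma-actin transcript exceeded beta-actin transcript in CD95ko 2 only. Of the 25-nucleotide stretches of Actg1 transcripts 4.83% also occur in Actb, and reads from these stretches had to be divided between the genes by the authors' quantification. Of the Actb stretches 24.8% also occur in another gene, 19.9% in Lrrc58, which was at 8.94 to 18.99 TPM.

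The tropomyosins and caldesmon, which coat the filament, were abundant and differed little between the groups except for Tpm2. Tpm2 was at 2.32 TPM in control 1, listed at 0 in control 2, at 2.31 TPM in CD95ko 1 and at 21.1 TPM in CD95ko 2. Only CD95ko 2 was high, and CD95ko 1 lay just under control 1, so the groups overlapped (log2 fold change 2.23 ± 0.98 SE, limma adjusted p = 0.333; 0.86 without CD95ko 2). Tpm1 was at 1029 and 581.2 TPM in the controls and at 506.2 and 1066 TPM in CD95ko 1 and CD95ko 2, each group holding a high and a low library. Tpm3 ranged from 299.6 to 358.7 TPM, with both libraries labelled CD95ko slightly below both controls (log2 fold change -0.22 ± 0.28 SE). Tpm4 ranged from 325.5 to 380.2 TPM and Cald1, caldesmon, from 276.9 to 370.9 TPM over the 4 libraries, with log2 fold changes of -0.003 and 0.03.

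In the calponin and transgelin family, which bind along actin bundles, Cnn2 and Tagln2 went in opposite directions. Cnn2, the calponin of non-muscle cells (chr10:79988584-79996062, forward strand), was at 158.9 and 136 TPM in the controls, 241.6 TPM in CD95ko 1 and 690.1 TPM in CD95ko 2. Both libraries labelled CD95ko were above both controls, CD95ko 2 by far the more (log2 fold change 1.47 ± 0.46 SE, limma adjusted p = 0.213; 0.71 without CD95ko 2). Tagln2, transgelin 2, was at 583.3 and 684.3 TPM in the controls and at 364 and 329.4 TPM in the libraries labelled CD95ko. The libraries of each group lay close together and the groups did not overlap (log2 fold change -0.87 ± 0.28 SE, limma adjusted p = 0.222). The ratio of Tagln2 to Cnn2 was 3.67 and 5.03 in the controls, 1.51 in CD95ko 1 and 0.477 in CD95ko 2. Cnn3 ranged from 139.7 TPM in CD95ko 1 to 220.7 TPM in CD95ko 2, with the controls at 184.7 and 185.8 TPM between them.

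Of the 5 tested non-muscle myosin II genes, 1 heavy chain gene, Myh9, reached an unadjusted p under 0.05 in limma. Myh9, the heavy chain of non-muscle myosin IIA, was at 181.8 and 101.7 TPM in the controls, 182.2 TPM in CD95ko 1 and 476.8 TPM in CD95ko 2. CD95ko 1 was level with control 1 and only CD95ko 2 was clearly higher (log2 fold change 1.11 ± 0.48 SE, limma adjusted p = 0.326; 0.42 without CD95ko 2). Myh10, the heavy chain of myosin IIB, was at 56.2 and 23.0 TPM in the controls and at 67.8 and 78.7 TPM in the libraries labelled CD95ko. Here control 2 was the library that stood apart, below the other 3 (log2 fold change 1.00 ± 0.46 SE, limma adjusted p = 0.353; 0.37 without control 2). Of the light chains, Myl6, the essential light chain, ranged from 1011.8 to 1471 TPM with overlapping groups. The regulatory light chain gene Myl12a was at 759.5 and 823 TPM in the controls and at 528.4 and 672.1 TPM in the libraries labelled CD95ko, both below both controls (log2 fold change -0.41 ± 0.28 SE, limma adjusted p = 0.526). Its close relative Myl12b was at 334.4 and 396.8 TPM in the controls, 293.6 TPM in CD95ko 1 and 602.1 TPM in CD95ko 2. Of the Myl12a stretches 17.8% also occur under the symbol Myl12b, so the split between the genes is uncertain. That symbol also covers a second annotated gene, chr17:70974119-71002208, which overlaps Myl12a. The share is therefore no measure of how alike the genes are.

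None of the 4 crosslinkers, which tie filaments into bundles and networks, reached an unadjusted p under 0.05 in limma. Actn1 and Actn4, the non-muscle alpha-actinins, ranged from 174.8 to 242.1 and from 147.6 to 255.2 TPM, with log2 fold changes of 0.17 and -0.09. Flna, filamin A, was at 178.1 and 148.4 TPM in the controls and at 250.6 and 176.5 TPM in CD95ko 1 and CD95ko 2, so CD95ko 1 was above both controls and CD95ko 2 lay between them. Flnc, filamin C, a weakly expressed filamin here, was at 15.0 and 7.61 TPM in the controls and at 18.0 and 36.6 TPM in CD95ko 1 and CD95ko 2. Both values were above both controls, and the SE was wide (log2 fold change 1.19 ± 0.54 SE, limma adjusted p = 0.351; 0.70 without CD95ko 2).

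In the core of the focal adhesion, Vcl encodes vinculin, which binds talin and actin under tension. Vcl (chr14:20929398-21033676, forward strand) was at 22.2 and 18.9 TPM in the controls and at 58.7 and 63.8 TPM in the libraries labelled CD95ko. The libraries of each group lay close together, the groups were well apart, and no single library carried the difference (log2 fold change 1.53 ± 0.38 SE, limma adjusted p = 0.147; 1.42 to 1.64 when each library was left out in turn). Tln1, talin 1, which links integrin tails to actin, was at 55.8 and 52.9 TPM in the controls and at 83.9 and 119 TPM in the libraries labelled CD95ko (log2 fold change 0.87 ± 0.35 SE, limma adjusted p = 0.289). For Vcl and for Tln1 both libraries labelled CD95ko were above both controls, as for 29.2% of all tested genes. The ratio of Vcl to Tln1 was 0.397 and 0.357 in the controls against 0.699 and 0.536 in the libraries labelled CD95ko. A link between the 2 differences was not tested.

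Ilk, integrin-linked kinase, a scaffold at the integrin tail, was the core adhesion gene with lower values. Ilk was at 183.7 and 173.4 TPM in the controls and at 106.9 and 107 TPM in the libraries labelled CD95ko. The gap between the groups was much wider than that within either group (log2 fold change -0.73 ± 0.30 SE, limma adjusted p = 0.298; -0.78 to -0.69 when each library was left out in turn). Pxn, paxillin, ranged from 97.5 to 130.9 TPM and Ptk2, focal adhesion kinase, from 52.1 to 77.8 TPM, both with overlapping groups and log2 fold changes of 0.17 and 0.09.

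Of the LIM domain and zyxin-VASP proteins, Csrp1 encodes cysteine and glycine-rich protein 1, an actin bundling LIM protein. Csrp1 (chr1:135720061-135752232, forward strand) was at 273.8 and 238.7 TPM in the controls and at 96.6 and 81.6 TPM in the libraries labelled CD95ko. Both were far below both controls, and this was the member with the smallest p (log2 fold change -1.52 ± 0.30 SE, unadjusted p = 0.00081, limma adjusted p = 0.11). Leaving out each library in turn gave -1.64 to -1.40, and Csrp1 passed the adjusted threshold without CD95ko 1 (limma adjusted p = 0.00605) and without CD95ko 2 (limma adjusted p = 0.0331), but not without either control, where the adjusted p reached 0.875.

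Pdlim7, a PDZ and LIM protein of actin bundles, was at 99.1 and 59.8 TPM in the controls and at 184.8 and 121.2 TPM in CD95ko 1 and CD95ko 2. Both were above both controls, CD95ko 1 the more (log2 fold change 0.95 ± 0.38 SE, limma adjusted p = 0.29; 0.59 without control 2). Vasp, which elongates filaments, was at 108.3 and 106.8 TPM in the controls and at 138.3 and 151.3 TPM in the libraries labelled CD95ko (log2 fold change 0.42 ± 0.30 SE, limma adjusted p = 0.544). Zyx, zyxin, was at 95.6 and 88.3 TPM in the controls and lay on either side of them at 65.2 TPM in CD95ko 1 and 118.5 TPM in CD95ko 2. Lasp1 was at 191.2 and 128.4 TPM in the controls and at 172.8 and 292.3 TPM in CD95ko 1 and CD95ko 2, and only CD95ko 2 exceeded both controls. Fhl2, a LIM-only protein, ranged from 85 to 162.1 TPM with overlapping groups.

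Ezrin, radixin and moesin tie filaments to the plasma membrane, and ezrin is the one typical of epithelial cells. Ezr (chr17:6738041-6782784, reverse strand) was at 151.1 and 199.9 TPM in the controls and at 354 and 448.2 TPM in the libraries labelled CD95ko. Every value of the one group exceeded every value of the other (log2 fold change 1.19 ± 0.31 SE, limma adjusted p = 0.158; 0.99 to 1.39 when each library was left out in turn). Msn, moesin, was at 313.4 and 249.1 TPM in the controls, 217.8 TPM in CD95ko 1 and 454.4 TPM in CD95ko 2, so the libraries labelled CD95ko fell on either side of the controls. Rdx, radixin, ranged from 48.6 to 67.6 TPM with overlapping groups. The ratio of Ezr to Msn was 0.482 and 0.802 in the controls against 1.63 in CD95ko 1 and 0.986 in CD95ko 2. Of the 11 epithelial markers 7 were higher in the same 2 libraries and Cldn3 was lower, where 29.2% of all tested genes were higher and 18.3% lower. The part of these markers in the ezrin result was not tested. A change in the share of cells of a type and a change in RNA per cell cannot be told apart in bulk libraries.

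The 4 monomer binding and turnover genes all had log2 fold changes below 0, as did 4759 of all 11167 tested genes. Of the 4, 1 reached an unadjusted p under 0.05 in limma, where 5.68% of all tested genes were lower. Pfn1 (-0.08) and Tmsb10 (-0.15) were small and reversed sign when a library was left out. Tmsb4x, thymosin beta 4, which sequesters actin monomers, was at 199 and 271 TPM in the controls, 60.8 TPM in CD95ko 1 and 175.5 TPM in CD95ko 2. CD95ko 1 was the low library, while CD95ko 2 was close to control 1 (log2 fold change -1.16 ± 0.48 SE, limma adjusted p = 0.303; -0.40 without CD95ko 1). Its relative Tmsb10 was at 1128 and 2424 TPM in the controls, with the libraries labelled CD95ko between them at 1331 and 1668 TPM.

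Cfl1, cofilin 1, which severs filaments, was at 960.1 and 1655 TPM in the controls and at 970.7 and 867.2 TPM in the libraries labelled CD95ko; control 2 alone was high, and against control 1 alone the log2 fold change was -0.07. Pfn1, profilin 1, which delivers monomers to filament ends, was at 1857 and 2304 TPM in the controls and at 2474 and 1556 TPM in CD95ko 1 and CD95ko 2, spanning the controls. Lmna, which encodes lamins A and C of the nuclear envelope, was at 550 and 821.2 TPM in the controls and at 568.4 and 467.8 TPM in the libraries labelled CD95ko (log2 fold change -0.38 ± 0.31 SE, limma adjusted p = 0.59), with control 2 again the library that stood apart.

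**Figure D3:**
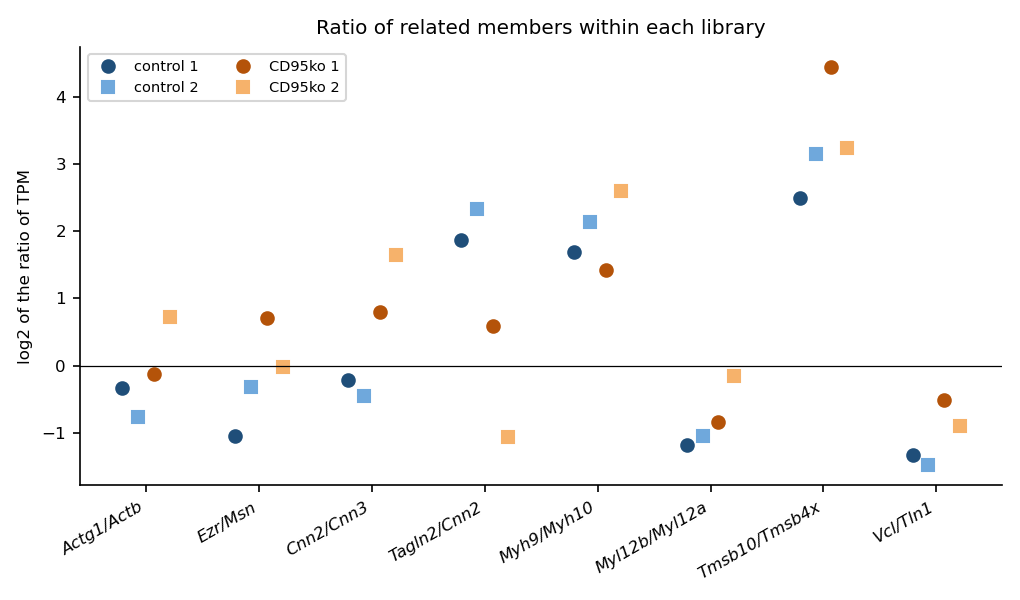
Log2 of the ratio of TPM of related members within each library (symbols as in the plot of levels; 0 means equal levels). Actg1/Actb is above 0 in CD95ko 2 only, Cnn2/Cnn3 is above 0 in both libraries labelled CD95ko, and Tmsb10/Tmsb4x is highest in CD95ko 1.

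The 2 libraries labelled CD95ko differed from each other in a one-sided way over the members. Of the 38 tested members 7 were more than 2-fold higher (on the TPM + 1 scale) in CD95ko 2 than in CD95ko 1, or 18.4%, and 0 were more than 2-fold lower. Of all tested genes 23.3% were that far apart, 9.9% higher and 13.4% lower. These were Tpm2, Tmsb4x, Cnn2, Myh9, Tpm1, Msn and Myl12b, with differences from 2.74 for Tpm2 down to 1.03 for Myl12b on the log2 scale. Tpm2 was also the one member over 4-fold apart within a group. In all, 26 members were higher and 12 lower in CD95ko 2 than in CD95ko 1, with a median difference of 0.33 against -0.10 over all tested genes. CD95ko 2 held the highest of the 4 values for 20 members (52.6%, against 31.5% of all genes) and the lowest for 6 (15.8%, against 30.4%), while CD95ko 1 held the highest for 6 (15.8%, against 28.3%) and the lowest for 12 (31.6%, against 14.4%). The libraries appear to be 1 for each clone, so there is no replicate check on this difference.

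Between the controls 3 members were more than 2-fold apart (7.89%, against 14.4% of all genes). Tmsb10 was higher in control 2, with a log2 difference of 1.10 (2.63% of members, against 1.84% of all genes higher by that much), and Tpm2 and Myh10 were lower, with -1.73 and -1.25 (5.26%, against 12.6%). Control 2 held the lowest of the 4 values for 17 members (44.7%), which is near the 45.2% of all tested genes. Leaving out 1 library changed the calls on the CD95ko side. Without CD95ko 1, 6 members passed an adjusted p of 0.05 (15.8%, against 9.26% of all genes): Actg1, Tpm2, Cnn2, Myh9 and Ezr, higher, and Csrp1, lower. Without CD95ko 2, Csrp1 and Tmsb4x passed, both lower (5.26%, against 1.74% of all genes). Without control 1 or control 2, 0 members and 0 of all genes passed. In these fits the lone library of a group is assumed to vary like the other group.

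**Figure D4:**
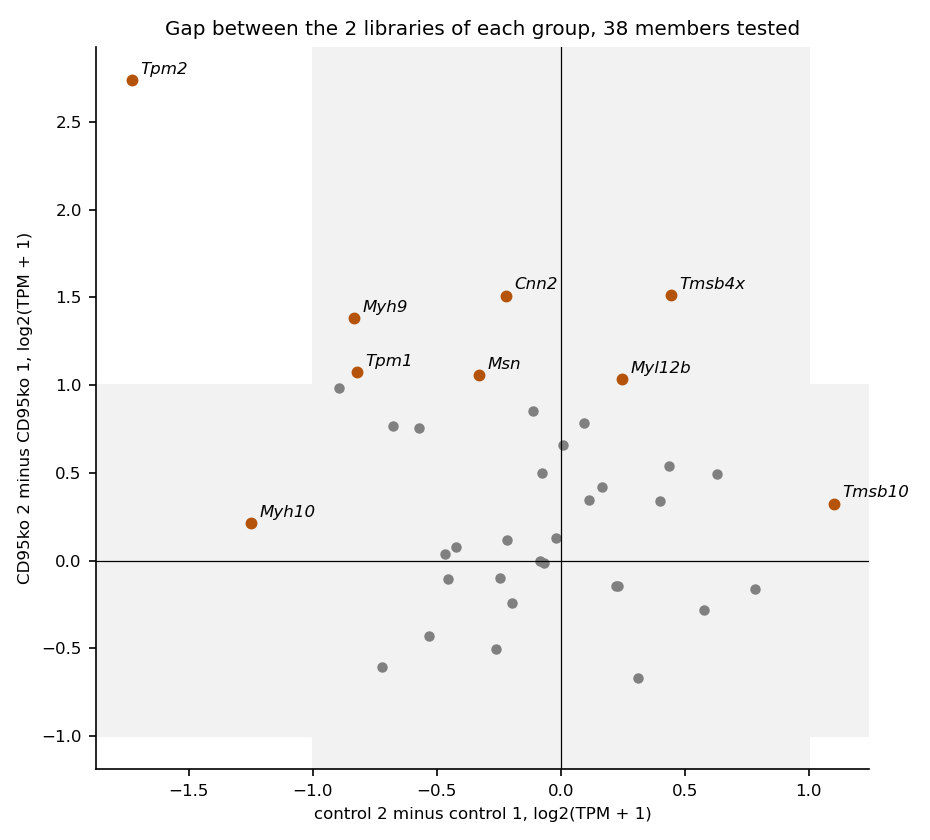
Gap between the 2 libraries labelled CD95ko (vertical axis) against the gap between the 2 controls (horizontal axis), both in log2(TPM + 1), for the 38 tested members; the grey bands mark gaps of less than 2-fold, and named orange points lie beyond 2-fold on at least 1 axis. The 7 members beyond 2-fold on the vertical axis are all at positive values, higher in CD95ko 2.

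The other genes of the actin pathway were examined from 8 lists covering 145 genes, of which 139 were tested. None passed an adjusted p of 0.05 in limma. An unadjusted p under 0.05 was reached by 25 (18.0%, against 14.9% of all genes), 22 of them higher (15.8%, against 9.25%) and 3 lower (2.16%, against 5.68%). With eBayes without trend the count was 19 (13.7%, against 13.7% of all genes), and under median ratio scaling 21 (15.1%, against 16.7%). Without control 1 it was 15 (10.8%, against 8.33% of all genes), without control 2 it was 3 (2.16%, against 4.2%) and without CD95ko 1 it was 38 (27.3%, against 24.3%). Both libraries labelled CD95ko lay above both controls for 64 of the 139 genes (46.0%, against 29.2%) and below both for 19 (13.7%, against 18.3%).

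The list of further myosins, which also holds the myosin-binding proteins Svil and Mprip, had the highest of the 8 list medians, 0.93. At an unadjusted p under 0.05 it held 5 of 14 genes, all higher, against 9.25% higher over all tested genes. Of its 12 myosin genes 10 were above 0, where 57.4% of all tested genes were, and their median was 0.94. Myh14, the heavy chain of non-muscle myosin IIC, was at 41.0 and 15.8 TPM in the controls, 77.0 TPM in CD95ko 1 and 319.6 TPM in CD95ko 2 (log2 fold change 2.57 ± 0.67 SE, limma adjusted p = 0.159). As with Myh9, CD95ko 2 was the highest library, and the ratio of Myh14 to Myh9 was 0.225 and 0.155 in the controls against 0.423 and 0.67. Myo1d was at 13.99 and 7.43 TPM in the controls and at 34.7 and 55.6 TPM in the libraries labelled CD95ko (log2 fold change 2.00 ± 0.49 SE).

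The bundling, crosslinking and linker proteins had a median of 0.78. Where 9.25% of all tested genes were higher and 5.68% lower at an unadjusted p under 0.05, 6 of these 19 were higher and 1 lower. The lower one was Lcp1, L-plastin, a bundling protein known from leukocytes and from carcinoma lines, at 26.6 and 35.7 TPM in the controls and 2.51 and 2.62 TPM in the libraries labelled CD95ko (log2 fold change -3.16 ± 0.51 SE, limma adjusted p = 0.0676). Its relative Pls3, T-plastin, was at 61.5 and 56.0 TPM in the controls and at 101.3 and 127.5 TPM in the libraries labelled CD95ko, the opposite order. Nf2, merlin, a relative of ezrin, was at 38.4 and 15.7 TPM against 71.3 and 214.1 TPM (a log2 fold change of 2.28 ± 0.59 SE), and Sptbn1, beta-spectrin, was at 31.7 and 16.9 TPM against 67.9 and 74.7 TPM (a log2 fold change of 1.58 ± 0.42 SE).

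Of the further focal adhesion proteins 4 of 27 were higher at an unadjusted p under 0.05 and 0 lower, with a median of 0.22. The shares over all tested genes were 9.25% higher and 5.68% lower. Tns4, a tensin that lacks the actin-binding part of its relatives, was at 25.2 and 18.1 TPM in the controls and at 129.7 and 187.2 TPM in the libraries labelled CD95ko (log2 fold change 2.81 ± 0.38 SE, limma adjusted p = 0.0594). Its groups were far apart. Sorbs3, vinexin, which binds vinculin, was at 1.28 and 1.4 TPM in the controls, 3.39 TPM in CD95ko 1 and 24.8 TPM in CD95ko 2. Nedd9, an adhesion docking protein, was at 7.25 and 3.83 TPM in the controls against 11.4 and 26.8 TPM.

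Among the Arp2/3 complex and its activators, which nucleate branched actin, 2 of 18 were higher and 1 lower at an unadjusted p under 0.05, and the median was 0.007. Over all tested genes 9.25% were higher and 5.68% lower at that p. Cttn, cortactin, was at 79.3 and 68.8 TPM in the controls, 153.9 TPM in CD95ko 1 and 319.9 TPM in CD95ko 2 (log2 fold change 1.57 ± 0.39 SE, limma adjusted p = 0.15). The subunit genes of the complex split, with Arpc1a at 90.2 and 71.1 TPM against 153.8 and 196.9 TPM, and Arpc5l at 173.5 and 126.8 TPM against 95.3 and 56.1 TPM. Of the capping, severing and turnover genes 3 of 17 were higher and 0 lower, led by Tmod3, a pointed-end capping protein, at 24.1 and 18.5 TPM against 42.9 and 68.6 TPM. Dstn, destrin, the relative of cofilin 1, was at 201.4 and 203.8 TPM in the controls and at 287.2 and 465.6 TPM in the libraries labelled CD95ko (log2 fold change 0.85 ± 0.32 SE, limma adjusted p = 0.273), a different order from that of Cfl1.

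SRF and its cofactors had 0 of 5 past an unadjusted p of 0.05 in limma, with Mkl1 (the tables' symbol for MRTF-A) at 19.1 and 11.6 TPM against 20.7 and 24.5 TPM. Of the lamina and LINC complex genes 1 of 10 was higher (Sun2) and 1 lower (Banf1) at that p. The shares over all tested genes were 9.25% higher and 5.68% lower. Banf1, a chromatin-binding partner of the lamina, was at 589.7 and 603.4 TPM in the controls, 375.4 TPM in CD95ko 1 and 106.9 TPM in CD95ko 2 (log2 fold change -1.57 ± 0.51 SE, limma adjusted p = 0.223). Lmnb1, lamin B1, was at 44.8 and 30.1 TPM against 66.5 and 66.6 TPM, and the ratio of Lmna to Lmnb1 was 12.3 and 27.3 in the controls against 8.55 and 7.03.

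**Figure D5:**
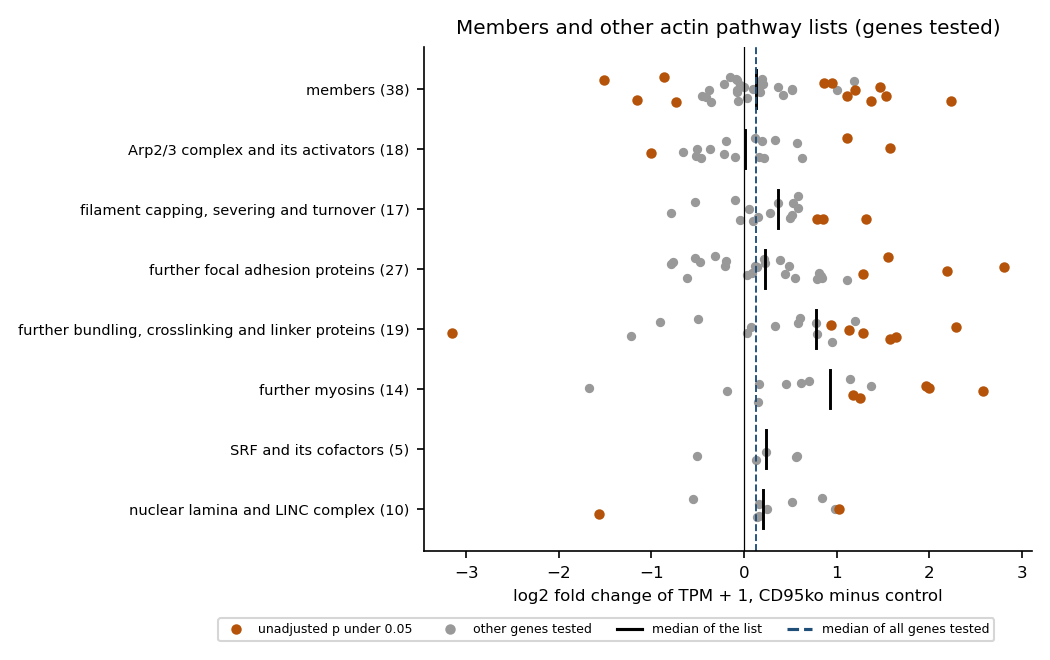
Log2 fold change (CD95ko minus control, TPM + 1) of the tested members and of 7 of the 8 other lists, number tested in parentheses; orange marks an unadjusted p under 0.05, black bars are list medians and the dashed line is the median of all tested genes, 0.13. The black bars of the list of further myosins (0.93) and of the bundling and linker proteins (0.78) lie to the right of the dashed line, while the bar of the members (0.13) lies on it.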

How the data were processed

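Each of the 4 deposited tables holds 1 TPM value per gene symbol, per the file headers, computed by the authors. The submitters' processing notes name STAR 2.6.0, RSEM 1.3.0 and mm10; their settings and annotation are not given in the sources used here. TPM keeps no depth, so no counting interval could be given. Library preparation used oligo(dT) capture, fragmentation, poly(A) tailing and PCR, per the labels' protocols.

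Genes that reached a TPM of 1 in 2 or more libraries (11167) were transformed to log2(TPM + 1) and compared between groups with limma 3.58.1 in R 4.3.3 (eBayes with trend, two-sided, Benjamini-Hochberg over all tested genes). This scale understates the fold change of weakly expressed genes. An exact permutation test of 2 against 2 cannot give a p under 0.333, so none was used. The procedure was run on simulated data with independent noise in each library. The simulation held no difference between lines, no shift of a library and no trend with length, so it does not test the calls reported here. Symbols absent from the tables were looked up as synonyms in RefSeq (GRCm38.p6); 6 were found so. Lengths and shared 25-nucleotide stretches came from GENCODE M21 (GRCm38, the same assembly as mm10).

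Values in every library are given for members at an unadjusted p under 0.05, for up to 3 members of each role group by size of the fold change, and for up to 3 genes of each other list by p; further values were chosen after they were seen. The members and lists were chosen with earlier results of these data known. Alternatives were another pseudocount, 2 scalings, a replicate block, other eBayes settings, other filters, and leaving out each library. The share of calls among genes with a mean TPM of at least 50 was added after seeing the data. Of the 8 other lists, 1 is counted in the totals but not reported here by itself.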

Additional observations from a re-analysis of the deposited data

How the results depend on the processing

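No member passed an adjusted p of 0.05 under any of the 9 alternatives that kept all 4 libraries; with 1 library left out the number ranged from 0 to 6. Members at an unadjusted p under 0.05, 12 as reported, were 5 with eBayes without trend (13.2%, against 13.7% of all genes) and 8 to 12 under the other alternatives with 4 libraries (21.1% to 31.6%, against 12.6% to 16.7%), the replicate block giving 9 (23.7%, against 15.1%). With 1 library left out they were 3 to 15 (7.89% to 39.5%, against 4.2% to 24.3%). In the other actin pathway lists 25 genes reached that p as reported (18.0%, against 14.9% of all genes). The alternatives with 4 libraries gave 19 to 27. With eBayes without trend there were 19 (13.7%, against 13.7%) and under median ratio scaling 21 (15.1%, against 16.7%). Quantile normalization gave 27 (19.4%, against 16.7%) and the replicate block 23 (16.5%, against 15.1%). Members whose groups do not overlap, 17 as reported, were 16 to 20 under the 2 scalings, and 20 to 31 with 1 library left out, which can only raise this number. Nothing in the labels pairs the replicate numbers. Deviations of same-numbered libraries had a correlation of -0.081 over all tested genes and of -0.346 over the 38 tested members. With and without the block 0 members passed the adjusted p. Of all genes, 6 passed the adjusted p as reported, 2 with the block, 38 with a filter of 1 TPM in 1 library, 52 with robust eBayes, 55 with a mean TPM of at least 5, and 0 with no trend, no filter, the pseudocount of 0.1 or either scaling. Fold changes reversed sign under quantile normalization for Tpm4 (0.042) and Myl6 (0.085) and under median ratio scaling for Cald1 (-0.12) and Ptk2 (-0.063). With 1 library left out, signs reversed within these ranges: Tpm1 -0.61 to 0.46, Tpm4 -0.12 to 0.11, Cald1 -0.18 to 0.24, Cnn3 -0.41 to 0.25, Myl6 -0.31 to 0.23, Myl12b -0.31 to 0.72, Actn1 -0.068 to 0.40, Actn4 -0.48 to 0.30, Pxn -0.038 to 0.38, Ptk2 -0.17 to 0.36, Zyx -0.49 to 0.36, Rdx -0.039 to 0.42, Msn -0.36 to 0.70, Pfn1 -0.41 to 0.26 and Tmsb10 -0.70 to 0.40. The cause of these changes was not tested. The other 338 member fold changes under 4-library alternatives kept sign and side of the threshold. Depth is unknown, so a gene listed at 0 may lie below a library's reach.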
